A study of Rattus norvegicus with 6 samples.

Results

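Tumors formed by rat 3Y1 fibroblasts that carry the cytoplasmic domain of the mucin MUC1 were compared with the empty-vector line in culture, the widest contrast among the 6 arrays of the study. The comparison used the 2 arrays of MUC1-CD tumors and the 2 arrays of Vector culture, chosen by their titles. The other 2 arrays, of MUC1-CD cells in culture, served to place each changed gene between these end points. Of 31099 probe sets, 57 controls were set aside and 31042 remained. 3Y1 is a line of fibroblasts from rat embryos. Both lines were stable transfectants, 1 with an empty vector (Vector) and 1 with a vector for the MUC1 cytoplasmic domain (MUC1-CD). Both grew in the same serum-containing medium. The tumors grew after MUC1-CD cells were placed under the skin of the hindlimbs of female athymic mice, animals that lack a thymus and most T cells but keep macrophages, other blood cells, vessels and muscle. The sources used here give neither the age of the mice, the number of cells behind each arrayed tumor nor the number of tumors per array. They also leave out the promoter of the vector and whether each line is a single clone. Cultured cells went into TRIzol, and tumors were frozen, soaked in a preservative, homogenized and purified with columns and TRIzol. The end points therefore differ in the transfected sequence, the growth setting, the host cells around the tumor cells and the RNA preparation, and these cannot be told apart by the comparison alone. The labels call the arrays of a group biological replicates without saying what separates them, so p values measure the spread between these arrays, which may be partly technical.

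MUC1 is a membrane glycoprotein of epithelia whose short cytoplasmic domain binds signalling proteins such as receptor tyrosine kinases, SRC family kinases and beta-catenin. Its overexpression in carcinomas is well known, and the isolated domain is used to separate intracellular signalling from the mucin's extracellular part. A solid tumor consists of tumor cells together with host fibroblasts, vessels and immune cells, and matrix proteins and matrix proteases are made by both compartments. In bulk samples, fewer cells of a type and less RNA per cell cannot be told apart.

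The deposited values were MAS5 signals, a linear intensity per probe set, with the same trimmed mean on every array (500.2). The median signal per array was 84 and 84.5 for Vector, 103.9 and 107.2 for cultured MUC1-CD cells and 124.5 and 130.4 for tumors. The 3' to 5' signal ratio of the Gapdh control was 11.5 and 17.8 on the Vector arrays and 1.11 to 1.18 on the other arrays. The beta-actin ratio was 4.15 and 41.7 on the Vector arrays and 2.97 to 3.37 on the others. This measure of RNA integrity thus moved with the Vector end point, and its part in the results was not tested. The replicates' log2 difference had an SD of 0.65 over probe sets in Vector culture, 0.40 in MUC1-CD culture and 0.47 in tumors. The rat Muc1 probe set gave 92.6 and 83.2 in Vector culture, 43.5 and 26.7 in MUC1-CD culture and 61.3 and 51.7 in tumors. It lay below the signal filter, was not tested, and the sources used here do not say whether it detects the transfected sequence.

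About as many genes were higher as were lower in MUC1-CD tumors against Vector culture. Of 10037 named genes that passed the signal filter, limma called 5155 at an adjusted p under 0.05 (51.4%). Tumors were higher for 2486 genes (24.8%) and lower for 2669 (26.6%). A change of at least 1 on the log2(signal + 16) scale, which is 2-fold for signals well above the added 16, was reached by 1459 of the called rises (14.5%) and 1174 of the called falls (11.7%). The median change over the tested genes was -0.02. Dividing each array by its median signal moved that median to -0.61, with 1195 genes called higher and 5458 lower, so that rises made up 18% of the calls against 48.2% as deposited and 43.5% after quantile normalization. Fewer genes were called without tumor replicate 1 (1555 higher, 1685 lower) or tumor replicate 2 (1598 higher, 1681 lower), on the assumption that the remaining array varies as the other groups do. More were called without Vector replicate 1 (3370 higher, 3440 lower) or Vector replicate 2 (3080 higher, 3361 lower). The balance of rises and falls therefore depends on the scaling, and changes below are those of the deposited scale unless stated. MUC1-CD culture against Vector, which uses the same Vector arrays, gave 4625 called genes (46.1%; 21.2% higher and 24.9% lower), and tumors against MUC1-CD culture gave 1886 (18.8%; 9.82% higher and 8.97% lower). Over all 18625 probe sets that passed, named or not, 51.5% were called between tumors and Vector, 29.1% higher and 22.4% lower.

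**Figure D1:**
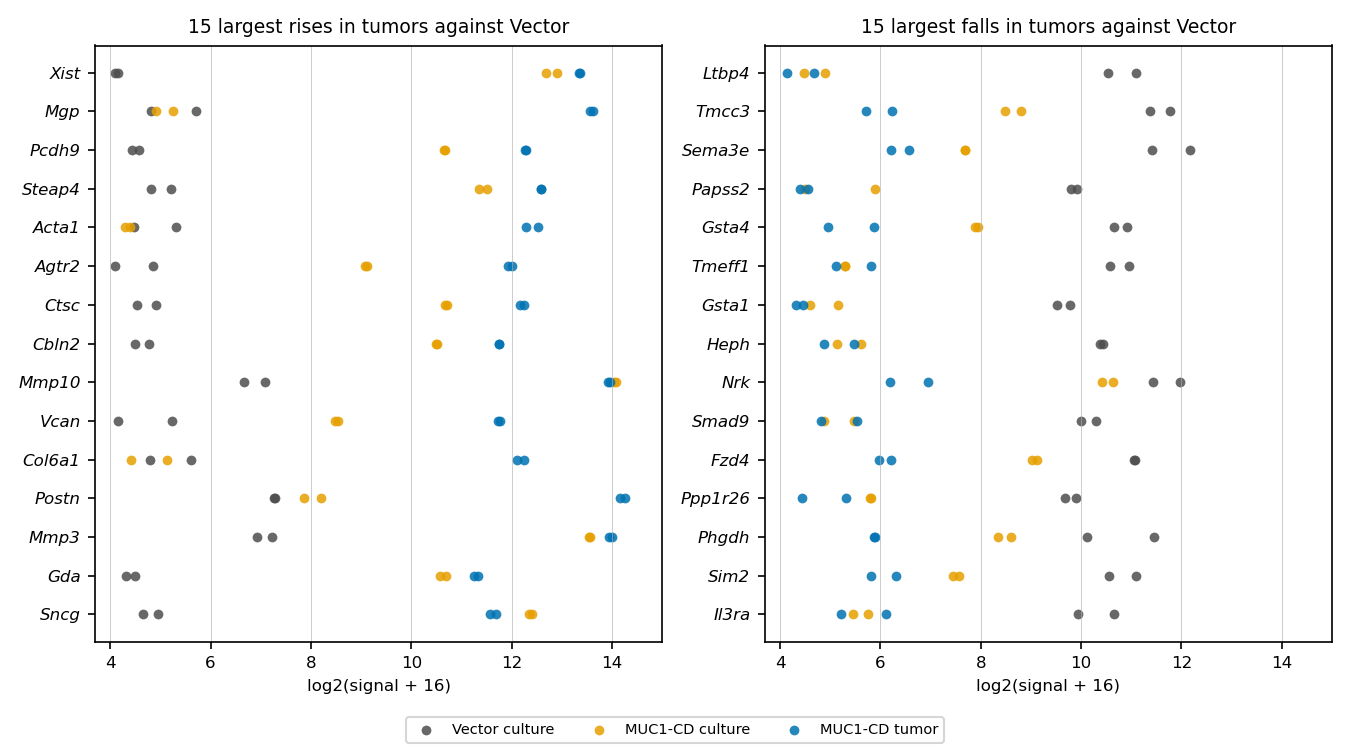
Signals as log2(signal + 16) on each of the 6 arrays for the 15 genes with the largest called rise (left) and the 15 with the largest called fall (right) in MUC1-CD tumors against Vector culture, 1 point per array. Only genes without overlap of tumor and Vector arrays were eligible, so these points lie apart in every gene by selection. Symbols starting with LOC, RGD, AABR or MGC were passed over. The MUC1-CD culture points lie beside the tumors for Xist, Mmp10 and Ltbp4, beside Vector for Mgp, Acta1 and Col6a1, and midway for Agtr2, Vcan and Tmcc3.

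The largest rises joined a noncoding RNA, matrix and protease genes and a muscle actin. Xist, the RNA that coats the inactive X chromosome in female cells, gave 1.7 and 1.2 in Vector culture, 6596 and 7668 in MUC1-CD culture and 10331 and 10472 in tumors. Both Vector arrays were near 0, and all 4 arrays of MUC1-CD cells were high. Its change in tumors against Vector was 9.22 (SE 0.13, adjusted p = 6.86e-07) on the log2 scale. The sources used here do not say whether both lines derive from 1 stock of 3Y1, so stock and transfected domain cannot be told apart here. Mgp, matrix Gla protein, an inhibitor of calcification, gave 36.5 and 11.9 in Vector culture, 14 and 22.3 in MUC1-CD culture and 12574 and 11999 in tumors. Only the tumor arrays were high, and the culture groups overlapped. The change of Mgp was 8.33 (SE 0.31, adjusted p = 1.27e-05). Acta1, the actin of skeletal muscle, was also high in the tumors alone, with 23.6 and 6.1 in Vector culture, 3.7 and 5.1 in MUC1-CD culture and 5854 and 4971 in tumors, a change of 7.51 (SE 0.30, adjusted p = 1.59e-05).

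Several of the other top rises were already high in cultured MUC1-CD cells. Pcdh9, a protocadherin of cell contacts, gave 7.8 and 5.7 in Vector culture, 1603 and 1592 in MUC1-CD culture and 4928 and 4996 in tumors, and its change was 7.77 (SE 0.14, adjusted p = 1.76e-06). Steap4, a metalloreductase of iron and copper uptake, gave 21.1 and 11.9 in Vector culture, 2576 and 2907 in MUC1-CD culture and 6125 and 6087 in tumors, with a change of 7.57 (SE 0.17, adjusted p = 2.58e-06). For both genes the cultured MUC1-CD arrays lay far above Vector and below both tumor arrays. Ctsc, the lysosomal protease cathepsin C that activates granule proteases, rose by 7.48, and Cbln2, a secreted synaptic organizer, by 7.11 (adjusted p = 2.58e-06 and 2.58e-06). Gda, guanine deaminase, rose by 6.88 from 6.5 and 3.9 in Vector culture to 2410 and 2556 in tumors. Sncg, gamma-synuclein, stood at 9.2 and 14.8 in Vector culture, 5209 and 5403 in MUC1-CD culture and 3004 and 3266 in tumors, so the cultured MUC1-CD cells were the highest. Agtr2, the type 2 angiotensin receptor, and Vcan, the matrix proteoglycan versican, were intermediate in culture: Agtr2 gave 1 and 13 in Vector culture, 538 and 525 in MUC1-CD culture and 3883 and 4096 in tumors. Vcan gave 1.7 and 21.3, 354 and 342 and 3356 and 3487 in the same order. Their changes in tumors against Vector were 7.49 (SE 0.26, adjusted p = 1.07e-05) and 7.06 (SE 0.33, adjusted p = 2.55e-05).

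Among the top falls, binding proteins, receptors and enzymes that the Vector cells made in quantity were near the bottom of the scale in tumors. Ltbp4, which binds latent TGF-beta in the matrix, gave 2181 and 1463 in Vector culture, 6.4 and 13.8 in MUC1-CD culture and 1.6 and 9.6 in tumors, a change of -6.41 (SE 0.33, adjusted p = 3.37e-05). Its culture and tumor signals in MUC1-CD cells overlapped. Sema3e, a guidance factor that acts on vessels through plexin D1, gave 2709.7 and 4575 in Vector culture, 190.3 and 191 in MUC1-CD culture and 79 and 57.8 in tumors, a change of -5.40 (SE 0.27, adjusted p = 3.19e-05). Tmcc3, a transmembrane protein of the endoplasmic reticulum, stood midway in culture, with 2641 and 3486 in Vector culture, 340.2 and 428 in MUC1-CD culture and 36.7 and 59.6 in tumors. The glutathione transferases Gsta4 and Gsta1, which detoxify reactive aldehydes and other electrophiles, had changes of -5.37 (SE 0.30, adjusted p = 4.56e-05) and -5.27 (SE 0.30, adjusted p = 4.49e-05). Papss2, which makes the sulfate donor used to modify proteoglycans, changed by -5.38 (SE 0.45, adjusted p = 1.74e-04), and Heph, a copper oxidase of iron export, by -5.24 (SE 0.29, adjusted p = 4.20e-05). Smad9, a transcription factor of BMP signalling, stood at 1010 and 1249.7 in Vector culture, 13.4 and 28.3 in MUC1-CD culture and 12.1 and 30.1 in tumors. The WNT receptor Fzd4 gave 2130.3 and 2112 in Vector culture, 504 and 538 in MUC1-CD culture and 46.9 and 58.6 in tumors, a change of -4.96 (SE 0.16, adjusted p = 7.87e-06), with 3 separate levels. Phgdh, the first enzyme of serine synthesis, stood at 2772 and 1099.6, 375 and 307 and 43.2 and 42.6 in the same order. Its change was -4.90 (SE 0.40, adjusted p = 1.57e-04), and its Vector arrays differed by more than a factor of 2. Nrk, a kinase of the germinal center kinase family, gave 2746 and 3992 in Vector culture, 1586 and 1342 in MUC1-CD culture and 108 and 57.6 in tumors, a change of -5.12 (SE 0.29, adjusted p = 4.56e-05). Its change in culture was -1.17 (adjusted p = 0.0162), a smaller share of the total than for the other 14 top falls. Tmeff1, Ppp1r26, Sim2 and Il3ra changed by -5.30, -4.91, -4.78 and -4.64 (adjusted p = 3.79e-05 to 1.57e-04).

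The place of MUC1-CD culture between the end points was computed for the 2633 genes called with a change of at least 1. Position is the MUC1-CD culture mean minus the Vector mean, as a percentage of the tumor mean minus the Vector mean, on the log2(signal + 16) scale. It is 0% at the Vector mean and 100% at the tumor mean. Both differences share the Vector arrays, so positions describe the arrays and carry no test. No gene of the 2633 had overlapping tumor and Vector arrays, which their selection on the same arrays largely fixed. Over all 14217 named genes without the filter, both tumor arrays lay above both Vector arrays for 36.7% and below for 30.5%.

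For more genes the cultured MUC1-CD cells stood at the tumor end than at the Vector end, in both directions. A shift confined to the Vector arrays enters both differences and can move positions toward 100%. These arrays also had Gapdh 3' to 5' ratios of 11.5 and 17.8, against 1.11 to 1.18 on the other arrays. The part of RNA integrity in the positions was not tested. Of the 1459 rises, 577 (39.5%) lay at the tumor end, within 25 points of 100%. Another 483 (33.1%) lay between 25% and 75%, and 226 (15.5%) at the Vector end, within 25 points of 0%. The rest were 117 (8.02%) beyond the tumors and 56 (3.84%) beyond Vector. Of the 1174 falls, 546 (46.5%) lay at the tumor end, 387 (33%) between, 74 (6.30%) at the Vector end, 150 (12.8%) beyond the tumors and 17 (1.45%) beyond Vector. The median position was 73.1% for rises and 83.5% for falls. Taken array by array, both MUC1-CD culture arrays fell strictly between the nearest Vector and tumor arrays for 748 rises (51.3%) and 608 falls (51.8%). Both were at or past the nearest tumor array for 331 rises (22.7%) and 383 falls (32.6%), and at or short of the nearest Vector array for 178 rises (12.2%) and 49 falls (4.17%). With the position taken from each culture array alone, 506 of the 577 rises and 424 of the 546 falls at the tumor end kept that class on both arrays, as did 151 of 226 rises and 51 of 74 falls at the Vector end.

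**Figure D2:**
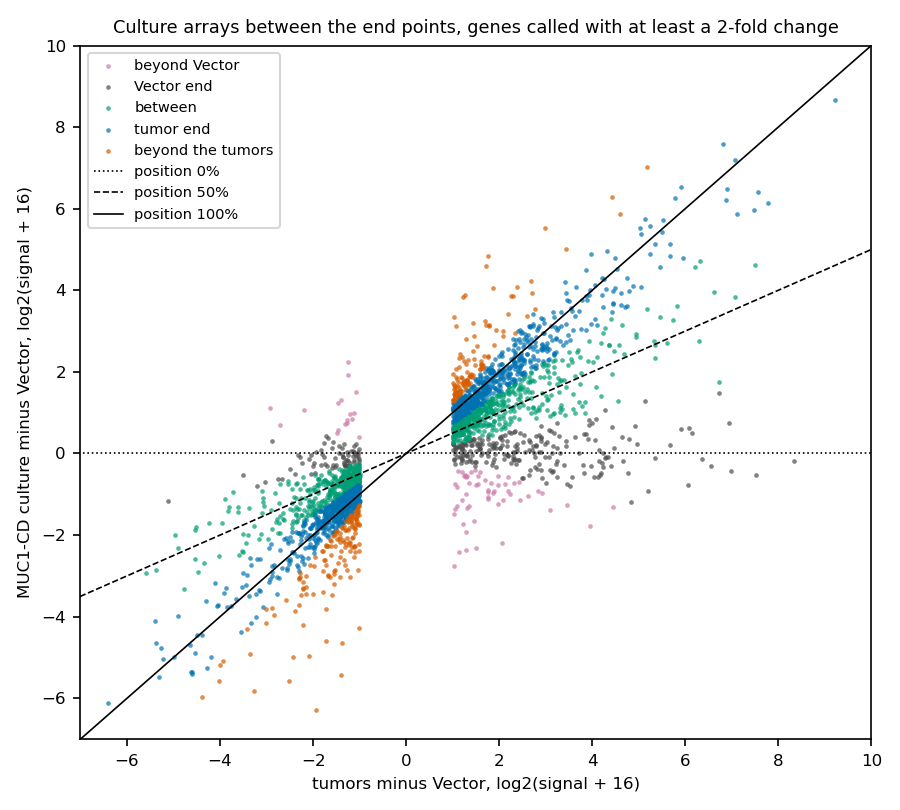
Difference of MUC1-CD culture from Vector against difference of tumors from Vector, both in log2(signal + 16), for the 2633 genes called in tumors against Vector with a change of at least 1 (1 point per gene, coloured by position class). Lines mark positions of 0%, 50% and 100%; points crowd between the 50% and 100% lines, and a second band of rises runs along the 0% line out to Mgp at 8.33.

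**Figure D3:**
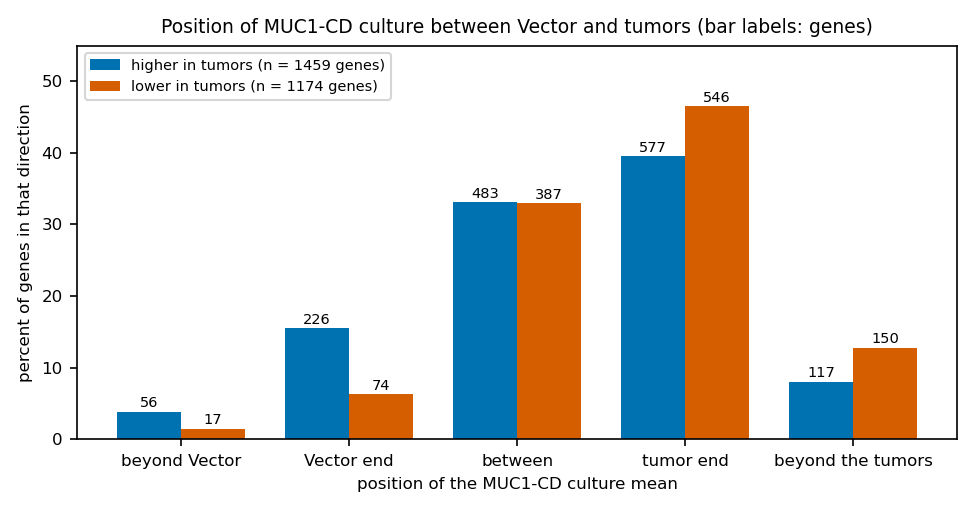
Share of genes in each position class, in percent of the 1459 rises (blue) and the 1174 falls (orange) in tumors against Vector; numbers above the bars are genes. The tumor end is the fullest class for rises (39.5%) and falls (46.5%), and the Vector end holds 15.5% of rises against 6.30% of falls. The latter contrast depends on the signal filter. The Vector end holds 21.4% of rises and 6.33% of falls with no filter, and 7.66% and 6.18% with a 60th percentile filter.

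Genes at the tumor end were mostly those already called between the cultured lines. Of the 577 rises there, 561 were called in MUC1-CD culture against Vector and 24 in tumors against MUC1-CD culture. Of the 546 falls there, 541 and 9 were called in these steps. At the Vector end the order was turned: 11 and 203 of the 226 rises and 5 and 70 of the 74 falls were called in the first and the second step. The classes were cut from the same signals, so these counts describe them. The median Vector signal was 39.4 for rises at the Vector end and 199 for rises at the tumor end. Markers of host cell types, from the lists described below, made up 22 of the 226 rises at the Vector end (9.73%), 7 of the 56 beyond Vector (12.5%), 7 of the 483 between (1.45%), 4 of the 577 at the tumor end (0.693%) and 0 of the 117 beyond the tumors. The signal filter took the mean of all 6 arrays, so a gene near 0 in all cultures passed it only through its tumor signals. Such a gene then lay near the Vector end, so these shares are partly set by the filter. How much of the rises near the Vector end is RNA of the host was not tested, nor whether these rat probes detect mouse RNA.

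Rises at the Vector end, where culture had made at most 25% of the change seen in tumors, were led by Mgp and Acta1 and by matrix genes. Postn, periostin, a matrix protein of activated stroma, gave 137 and 140.4 in Vector culture, 215 and 276 in MUC1-CD culture and 18360.4 and 19565 in tumors. Its change was 6.94 (SE 0.15, adjusted p = 2.58e-06) and its position 10.8%, and it was also called higher in MUC1-CD culture than in Vector, by 0.75 (adjusted p = 0.00805). The chains of collagen VI, which form beaded filaments beside basement membranes, shared this pattern: Col6a1 gave 32.8 and 11.6 in Vector culture, 19.1 and 5.3 in MUC1-CD culture and 4388 and 4815 in tumors, and Col6a2 gave 6 and 8.7, 2.4 and 3.5 and 2136 and 2238 in the same order. Their changes were 6.97 (SE 0.35, adjusted p = 3.27e-05) and 6.56 (SE 0.23, adjusted p = 1.09e-05). Hsd11b1, which regenerates active glucocorticoid, rose by 6.73 (position 22.2%), of which 1.49 was present in culture (adjusted p = 0.0426). In all 3 collagen VI chains, counting Col6a3 below, the tumor arrays stood above 2000 and all 4 culture arrays below 200.

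Rises beyond Vector, where the MUC1-CD culture mean lay below Vector and the tumor mean above both, included Mmp2, Myl11, Apoc1, Cd248, RT1-Db1 and Enpp2. Of the 56, 30 were called lower in MUC1-CD culture than in Vector, and Enpp2 was not (adjusted p = 0.0692). Mmp2, gelatinase A, which cleaves collagen IV and denatured collagen, gave 86.5 and 86.9 in Vector culture, 30.6 and 20.4 in MUC1-CD culture and 2139 and 2294 in tumors. Its change was 4.44 (SE 0.20, adjusted p = 2.10e-05) and its position -29.7%. Cd248, endosialin of pericytes and stromal fibroblasts, gave 52.2 and 16.6, 2.6 and 1.8 and 397 and 373 in Vector culture, MUC1-CD culture and tumors. Apoc1, an apolipoprotein made by macrophages and liver, rose by 3.45, Myl11, a fast muscle myosin light chain, by 3.95, and Enpp2, autotaxin, which makes lysophosphatidic acid, by 2.83 (adjusted p = 8.93e-05, 4.13e-04 and 7.60e-04).

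Rises between the end points had a MUC1-CD culture mean that lay between the Vector and tumor means, by the definition of the class. A call in MUC1-CD culture against Vector was made for 348 of the 483, and in tumors against MUC1-CD culture for 194. Both steps were called for 162. Col15a1, a collagen of basement membrane zones, gave 16.6 and 58.3 in Vector culture, 740.2 and 757 in MUC1-CD culture and 4598 and 4996 in tumors. Enpp3, an ectonucleotidase, gave 42.1 and 53.3, 1584 and 1702 and 4971 and 5067 in the same order. In both genes the 3 groups were separate, and the changes from Vector to tumors were 6.61 (SE 0.35, adjusted p = 3.79e-05) and 6.31 (SE 0.14, adjusted p = 2.58e-06). Pla2g2a, a secreted phospholipase, and Stra6, a receptor for the retinol carrier, rose by 6.30 and 6.73, at positions of 43.7% and 26.0%; Stra6 was just above the 25% limit of its class.

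Rises beyond the tumors had a higher mean in MUC1-CD culture than in tumors, by the definition of the class. Of the 117, 49 were called in tumors against MUC1-CD culture. Ptgs1, cyclooxygenase 1, gave 109 and 105 in Vector culture, 6965 and 7359 in MUC1-CD culture and 2929 and 2952 in tumors. Adh1c, an alcohol dehydrogenase, stood at 9.8 and 5.7, 2951 and 3186 and 807 and 877, and Ripk4, a kinase of keratinocyte differentiation, at 5.5 and 7, 1752 and 1672 and 489 and 432. Tumors exceeded Vector in each, by 4.59, 5.18 and 4.42 on the log2 scale, and fell short of MUC1-CD culture. Ryr3, a calcium release channel, had the most extreme position of the 6 named in this class, 186%, with 1235 and 1211 in MUC1-CD culture against 199.6 and 189 in tumors. Smarca1, a chromatin remodelling ATPase, and Rgs17, a brake on G protein signalling, rose by 3.44 and 2.78.

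Falls followed the same classes with other genes. At the Vector end stood Grb14, an adaptor that inhibits the insulin receptor, with 982 and 945 in Vector culture, 675 and 655 in MUC1-CD culture and 64.9 and 76.3 in tumors and a change of -3.50 (SE 0.15, adjusted p = 2.10e-05). Lgr4, a receptor for R-spondins that strengthens WNT signalling, changed by -3.21, the transcription factor gene Dmrt2 by -3.04 and the basement membrane collagen Col4a5 by -2.76. Ankrd1, a nuclear and sarcomeric protein and a well known YAP target, gave 806 and 831 in Vector culture, 1041 and 977 in MUC1-CD culture and 92.4 and 101 in tumors, a change of -2.89 (SE 0.14, adjusted p = 3.22e-05) at a position of -10.3%. Beyond Vector stood Pwwp3b, with 556 and 689 in Vector culture, 1304 and 1428 in MUC1-CD culture and 79.2 and 56.5 in tumors, and Ddah1, which degrades inhibitors of nitric oxide synthase, with 529 and 592, 1226 and 1151 and 109.8 and 109. In both, cultured MUC1-CD cells were above Vector cells and tumors below both. Abhd3, a phospholipase, and Ppp1r14c, a phosphatase inhibitor, changed by -2.71 and -1.46. Tmem50b and the keratin Krt7 belong to this class as well, at -1.48 and -1.45, and their calls were lost under 8 and 7 of the 15 other settings that tested them.

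Falls beyond the tumors had a lower mean in MUC1-CD culture than in tumors, by the definition of the class. Of the 150, 71 were called in tumors against MUC1-CD culture. Cryab, alpha B-crystallin, a small heat shock protein, gave 5772 and 6175 in Vector culture, 170.4 and 132 in MUC1-CD culture and 352 and 368 in tumors, a change of -3.99 (SE 0.16, adjusted p = 1.48e-05). Slpi, an inhibitor of leukocyte elastase, gave 1226 and 2114 in Vector culture, 8.1 and 11.9 in MUC1-CD culture and 83 and 44.8 in tumors, a change of -4.39 (SE 0.35, adjusted p = 1.45e-04). Both were lower on all 4 arrays of MUC1-CD cells than on either Vector array, and the tumors stood above MUC1-CD culture. Zmym6, Eid2, Zbed3 and Gstk1 changed by -4.02, -3.94, -3.42 and -3.36. Eid2 and Zbed3 were not called in tumors against MUC1-CD culture (adjusted p = 0.0543 and 0.133). Between the end points, Peg12, an imprinted gene expressed from the paternal copy, gave 440.2 and 542, 54.7 and 83.4 and 4.2 and 7.

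The stromelysin genes Mmp3 and Mmp10 stood at the tumor end in culture, while their neighbour Mmp12 stood at the Vector end. They lie in 1 row of protease genes on chromosome 8 of the GRCr8 assembly, in the order Mmp13, Mmp12, Mmp1b, Mmp3, Mmp1, Mmp10, Mmp8 and Mmp27. Mmp12 and Mmp13 are described for their place in this row and were chosen after their values were seen. Mmp3, stromelysin 1, gave 106 and 134 in Vector culture, 12062 and 11939.5 in MUC1-CD culture and 16353 and 15629.9 in tumors, a change of 6.89 (SE 0.13, adjusted p = 1.76e-06). Mmp10, stromelysin 2, gave 119 and 85 in Vector culture, 17266 and 16846 in MUC1-CD culture and 15488 and 15798 in tumors, a change of 7.07 (SE 0.15, adjusted p = 2.58e-06), and its tumor arrays did not exceed its MUC1-CD culture arrays. Mmp13, collagenase 3, gave 5204 and 6002 in Vector culture, 18274 and 18998 in MUC1-CD culture and 12648 and 14107 in tumors, a change of 1.25 (SE 0.10, adjusted p = 1.44e-04). Mmp12, the elastase of macrophages, gave 26.2 and 27.4 in Vector culture, 28.3 and 37.9 in MUC1-CD culture and 467 and 426 in tumors, a change of 3.43 (SE 0.24, adjusted p = 8.82e-05) at a position of 5.58%. In cultured MUC1-CD cells, then, Mmp3, Mmp10 and Mmp13 were far above Vector, and Mmp12 differed from Vector by 0.19 (adjusted p = 0.54). The promoters of all 4, shown because their genes divide in this way, hold an AP-1-type motif, TGANTCA, which reads the same on both strands. The 110 bases before each start, from RefSeq on GRCr8, plus strand, have the motif in capitals.
Mmp13 (chr8:12782719-12782828): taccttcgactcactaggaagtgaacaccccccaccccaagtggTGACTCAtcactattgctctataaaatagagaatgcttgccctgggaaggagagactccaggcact
Mmp12 (chr8:12866542-12866651): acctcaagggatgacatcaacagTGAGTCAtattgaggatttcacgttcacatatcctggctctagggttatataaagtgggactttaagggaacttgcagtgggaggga
Mmp3 (chr8:12925171-12925280): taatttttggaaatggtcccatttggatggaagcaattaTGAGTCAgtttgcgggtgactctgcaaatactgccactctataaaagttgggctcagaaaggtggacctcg
Mmp10 (chr8:12974597-12974706): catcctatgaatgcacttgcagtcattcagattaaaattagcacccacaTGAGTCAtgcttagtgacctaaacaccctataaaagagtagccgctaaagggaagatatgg
The match began 66, 87, 71 and 61 bases before the start in Mmp13, Mmp12, Mmp3 and Mmp10. Within the 250 bases before the start, 1747 of 27457 rat promoters held this motif (6.36%), as did 7 of the 23 promoters found for the 32 measured members of the protease list (30.4%). The motif does not separate Mmp12 from the others, and a match is a description of the letters.

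**Figure D4:**
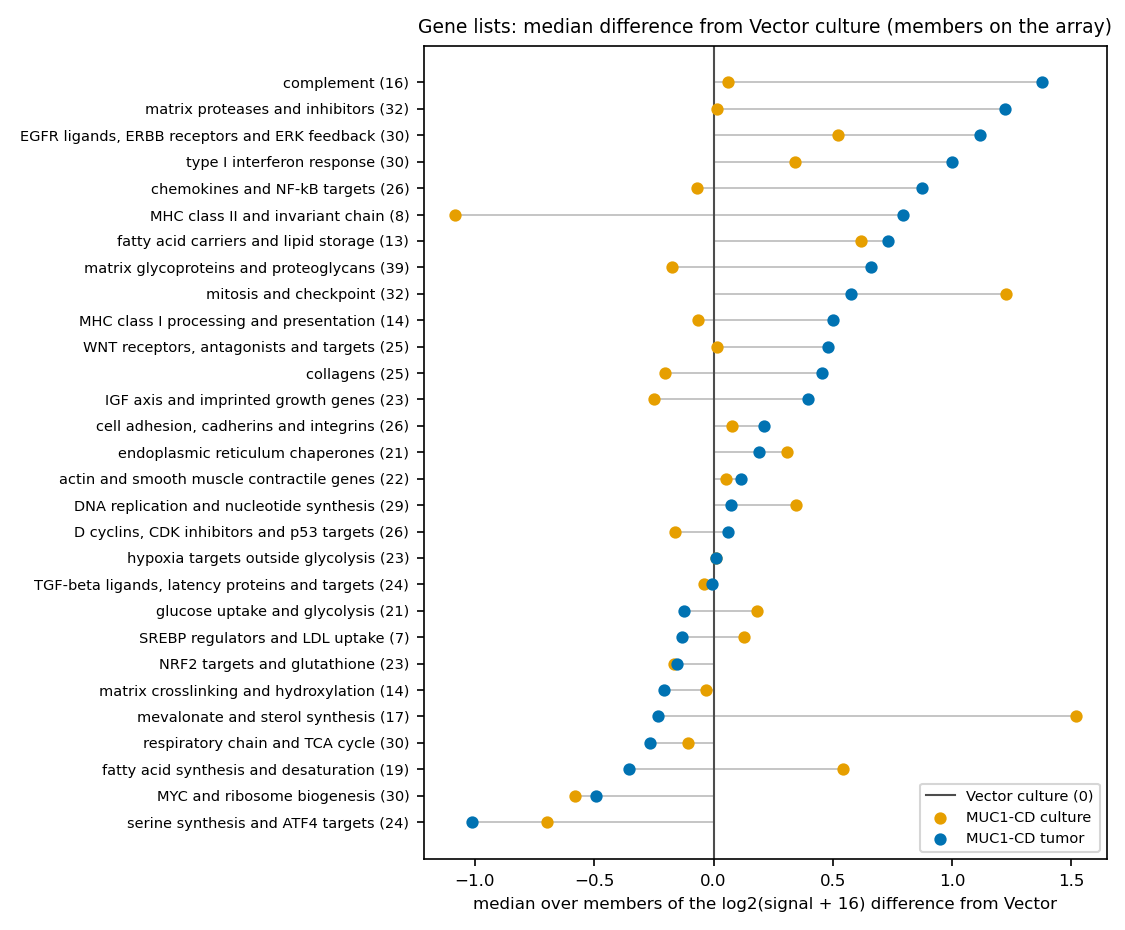
Median difference from Vector culture, in log2(signal + 16), over the measured members of each pathway list (number in brackets) for MUC1-CD culture (orange) and tumors (blue), with no error drawn since members are not replicates. Tumors and culture are apart in MHC class II, sterol and fatty acid synthesis, and close together in MYC and ribosome biogenesis, hypoxia and NRF2 lists.

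Gene lists are described by the calls among members that passed the filter and by the median over all measured members, beside a median of 0.08 over all 14217 named genes measured. Over all tested genes 24.8% were called higher and 26.6% lower, and no list was tested against these shares. A member near 0 in all cultures passed the filter only through its tumor signals, so counts of called rises are partly set by the filter. Of the matrix proteases and inhibitors, 28 of 32 measured members passed the filter; 17 were called higher in tumors (against 24.8% of all genes) and 6 lower (against 26.6%), with a median of 1.22. Beside the stromelysins, Serpinb2, an inhibitor of plasminogen activators, gave 91.8 and 159 in Vector culture, 12305 and 13014 in MUC1-CD culture and 8284 and 8215 in tumors, a change of 5.91 (SE 0.22, adjusted p = 1.27e-05). Of the 20 collagens that passed, among 25 measured, 11 were called higher and 6 lower (median 0.45). Division by array medians gave 9 higher and 9 lower. Col6a3, the third collagen VI chain, gave 85.1 and 126 in Vector culture, 172 and 164 in MUC1-CD culture and 8257 and 8004 in tumors, a change of 6.09 (SE 0.19, adjusted p = 7.83e-06). Col8a1, a collagen of vessel walls, stood at 118 and 152, 3427 and 3302 and 2199 and 2159 in Vector culture, MUC1-CD culture and tumors, so its rise was present in culture. Col11a1, a fibrillar collagen of cartilage, gave 1413 and 1454 in Vector culture, 13.6 and 23.7 in MUC1-CD culture and 48.1 and 39.9 in tumors, a change of -4.60 (SE 0.23, adjusted p = 3.19e-05), and Col1a1, the main fibrillar collagen of fibroblasts, gave 14621 and 11678 in Vector culture, 5059.5 and 4873 in MUC1-CD culture and 6869.7 and 6505 in tumors, a change of -0.97 (SE 0.12, adjusted p = 8.09e-04). The collagens therefore moved in both directions, with the 3 collagen VI chains, Col8a1 and Col15a1 up and Col1a1, Col11a1 and Col4a5 down.

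Of the matrix glycoproteins and proteoglycans, 32 of 39 measured members passed, 17 were called higher and 7 lower, and the median was 0.66. Fbn1, fibrillin 1 of elastic microfibrils, gave 10.5 and 8 in Vector culture, 155 and 153 in MUC1-CD culture and 986 and 1023 in tumors, a change of 5.34 (SE 0.19, adjusted p = 1.13e-05). Nid1, nidogen of basement membranes, gave 698 and 599.6 in Vector culture, 2770.2 and 2643 in MUC1-CD culture and 5483 and 5265 in tumors, a change of 3.02 (SE 0.12, adjusted p = 1.46e-05). In both the 3 groups were separate and ordered from Vector over MUC1-CD culture to tumors. Enzymes that crosslink or modify matrix had 2 called higher and 5 lower among 13 of 14 that passed (median -0.21, and 0.03 over those that passed without Vector replicate 1). Loxl2, a lysyl oxidase, rose by 2.92 (SE 0.17, adjusted p = 4.68e-05), and P4ha3, a prolyl hydroxylase, and Pcolce, an enhancer of procollagen processing, changed by -1.63 and -0.96 (adjusted p = 1.07e-04 and 0.00184). Lox changed by -1.09, but its 1 other probe set that passed the filter was called in the opposite direction.

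EGFR ligands and feedback genes of the ERK pathway were mostly higher in tumors than in Vector culture. Of 30 measured members 26 passed the filter, with 18 called higher in tumors and 1 lower and a median of 1.12. Areg, amphiregulin, a ligand of EGFR, gave 113 and 177 in Vector culture, 5100.5 and 4661 in MUC1-CD culture and 3239 and 3019 in tumors, a change of 4.32 (SE 0.20, adjusted p = 2.55e-05). Dusp6, the phosphatase that switches ERK off, gave 1636 and 1434 in Vector culture, 9841 and 9174 in MUC1-CD culture and 9176 and 10144 in tumors, a change of 2.64 (SE 0.11, adjusted p = 1.62e-05). Both stood at the tumor end, at 115% and 99.2%. The immediate early genes Egr1 and Egr2, transcription factors induced by growth factors and by handling of tissue, lay nearer Vector in culture. Egr1 gave 593 and 614 in Vector culture, 863 and 814 in MUC1-CD culture and 3453 and 3686 in tumors and Egr2 gave 105 and 155 in Vector culture, 334 and 325 in MUC1-CD culture and 1992 and 2133 in tumors, with changes of 2.53 (SE 0.12, adjusted p = 2.58e-05) and 3.85 (SE 0.20, adjusted p = 3.30e-05). Tumor handling differed from that of cultures, and its part in the immediate early genes was not tested.

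TGF-beta genes moved both ways, with 8 called higher and 7 lower of 24 (median -0.01, which turned to 0.02 after quantile normalization and 0.06 without Vector replicate 1). These counts are not far from the shares over all tested genes, 24.8% called higher and 26.6% lower. Inhba, whose product forms activin A, gave 17.8 and 24.4 in Vector culture, 286 and 399.5 in MUC1-CD culture and 1927 and 1975 in tumors, a change of 5.73 (SE 0.21, adjusted p = 1.27e-05), and Pmepa1, a feedback inhibitor of TGF-beta signalling, rose by 3.24 (SE 0.13, adjusted p = 1.46e-05). Ccn2, connective tissue growth factor, gave 4126 and 4816 in Vector culture, 800.3 and 746 in MUC1-CD culture and 224 and 303 in tumors, a change of -4.01 (SE 0.18, adjusted p = 2.10e-05). These genes thus differed in direction, and Ltbp4 and Ankrd1 above fell as well. WNT genes gave 9 called higher and 6 lower among 19 of 25 that passed (median 0.48). Division by array medians gave 6 higher and 7 lower. Axin2, a direct target of beta-catenin, gave 48.5 and 23.8 in Vector culture, 68.9 and 42.3 in MUC1-CD culture and 693 and 705 in tumors, a change of 3.82 (SE 0.31, adjusted p = 1.56e-04), with overlap between the culture groups and only the tumors high. Tcf7, a partner of beta-catenin, rose by 1.89 (SE 0.14, adjusted p = 1.10e-04). Sfrp4, a secreted WNT antagonist, stood at 20.2 and 29.5, 1397 and 1399 and 1692 and 1578 in Vector culture, MUC1-CD culture and tumors, and Ccn5 changed by -2.36.

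Of 30 interferon response genes, 18 were called higher in tumors and 3 lower, with a median of 1.00. Division by array medians left 12 higher and 7 lower, with a median of 0.42. In MUC1-CD culture against Vector, 11 were called higher and 4 lower, with a median of 0.34. Ifit3 and Ifit2, which bind viral RNA or block its translation, gave 31.2 and 26.6 in Vector culture, 182 and 219 in MUC1-CD culture and 595 and 722 in tumors for Ifit3 and 85.4 and 96.8 in Vector culture, 379.6 and 391 in MUC1-CD culture and 1301 and 1316 in tumors for Ifit2. The changes were 3.90 (SE 0.20, adjusted p = 3.60e-05) and 3.63 (SE 0.15, adjusted p = 1.67e-05), and the 3 groups of arrays were separate for both. Gbp2, an interferon-induced GTPase, gave 580.2 and 691 in Vector culture, 829 and 868 in MUC1-CD culture and 4939 and 4750.2 in tumors, a change of 2.90 (SE 0.13, adjusted p = 2.41e-05) at a position of 14.2%. Cxcl10, an interferon-induced chemokine, went the other way, with 5188 and 5558 in Vector culture, 2533 and 2447 in MUC1-CD culture and 2320.5 and 2386 in tumors and a change of -1.18 (SE 0.10, adjusted p = 1.66e-04). The promoters of Ifit3 and Gbp2, shown as examples of the 2 patterns, held a motif of the kind bound by interferon-activated factors (GAAA, any 2 bases, GAAA), searched on both strands and here found as its reverse complement. The 110 bases before each start, from RefSeq on GRCr8, plus strand, have it in capitals.
Ifit3 (chr1:241527216-241527325): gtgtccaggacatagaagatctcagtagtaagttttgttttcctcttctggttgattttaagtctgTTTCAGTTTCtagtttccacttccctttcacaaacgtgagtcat
Gbp2 (chr2:234005617-234005726): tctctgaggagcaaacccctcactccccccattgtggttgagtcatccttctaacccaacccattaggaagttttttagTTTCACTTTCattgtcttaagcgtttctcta
The match began 44 bases before the start in Ifit3 and 31 in Gbp2. It was present in the 250 bases before the start of 902 of 27457 promoters (3.29%), of 14 of the 24 found for the interferon list (58.3%) and of 8 of the 12 found for the MHC class I list (66.7%).

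Of MHC class I genes, 7 of 13 that passed (14 measured) were called higher and 0 lower, with a median of 0.50 (0.58 over those that passed, and -0.01 there after division by array medians). RT1-S3, a class I molecule, gave 152 and 158 in Vector culture, 137 and 139 in MUC1-CD culture and 849.9 and 965 in tumors, and Psmb8, a subunit of the immunoproteasome, gave 604 and 499 in Vector culture, 973 and 1157 in MUC1-CD culture and 2355 and 2110 in tumors. Their changes were 2.43 (SE 0.16, adjusted p = 8.03e-05) and 1.99 (SE 0.16, adjusted p = 1.49e-04). Psme2, a proteasome activator, and the class I gene RT1-N3 rose by 1.32 and 1.36. For the class II genes and the invariant chain, 5 of 8 were called higher in tumors and 0 lower (median 0.79). Division by array medians gave 3 higher and 2 lower, with a median of 0.23. On the deposited scale, 5 of 8 were called lower and 0 higher in MUC1-CD culture than in Vector. In that step the class I genes gave 3 called higher and 1 lower, and a difference between the classes was not tested. Cd74, the invariant chain, gave 169.7 and 103 in Vector culture, 58.4 and 41.7 in MUC1-CD culture and 4211 and 4201 in tumors, a change of 4.83 (SE 0.25, adjusted p = 3.52e-05). RT1-Db1 gave 149 and 194 in Vector culture, 66.4 and 95.7 in MUC1-CD culture and 1352 and 1459 in tumors, a change of 2.93 (SE 0.22, adjusted p = 1.15e-04), and RT1-Ba changed by 2.23 (SE 0.48, adjusted p = 0.00794). RT1-Da stood at 246 and 266, 54.4 and 65.5 and 428 and 389.8; its call (change 0.64 (SE 0.18, adjusted p = 0.0247)) was lost under 7 of 16 other settings, among them leaving out either tumor array. RT1 genes are near-identical copies, so cross-hybridization between them was not separated here.

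Chemokines, NF-kB targets and complement were largely higher. Of 21 chemokine and NF-kB genes that passed (26 measured), 14 were called higher and 0 lower, with a median of 0.87. Bcl2a1, an inhibitor of apoptosis in leukocytes, gave 2.1 and 13.3 in Vector culture, 3.6 and 6.5 in MUC1-CD culture and 1371 and 2544 in tumors, and Vcam1, an adhesion receptor for leukocytes, gave 76.3 and 136 in Vector culture, 73.8 and 63.3 in MUC1-CD culture and 2163 and 2112 in tumors. Only the tumors were high in both, with changes of 6.35 (SE 0.38, adjusted p = 5.68e-05) and 4.19 (SE 0.25, adjusted p = 5.92e-05). Cx3cl1, fractalkine, was instead high in cultured MUC1-CD cells, at 35.1 and 43.5, 486 and 447 and 321 and 378, and Nfkb1, a subunit of NF-kB, rose by 1.42 (SE 0.12, adjusted p = 1.73e-04). Of 11 complement genes that passed (16 measured), 9 were called higher and 1 lower, with a median of 1.38. C1qa, C1qb, C1qc, C3, Bcl2a1 and Ccl4 were below the filter value of 61.6 on every culture array, so they passed through their tumor signals. Whatever the filter, both tumor arrays lay above both Vector arrays for 11 of 16 complement genes and below for 1. Of 26 chemokine and NF-kB genes, 19 lay above and 2 below. Over all 14217 named genes these shares were 36.7% and 30.5%. C1s and C1r, proteases of the first component, rose from 1208 and 1571 and from 1352 and 1209 in Vector culture over 3846 and 3804 and 3463 and 3451 in MUC1-CD culture to 6967 and 7196 and 5033 and 5128 in tumors. C1qa, a macrophage product, gave 31.4 and 40.2 in Vector culture, 29.3 and 50.5 in MUC1-CD culture and 914 and 887 in tumors, a change of 4.15 (SE 0.25, adjusted p = 6.12e-05). Cd59b, an inhibitor of complement lysis, rose by 1.97 (SE 0.17, adjusted p = 2.01e-04).

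Sterol synthesis genes did not lie between the end points. Of 17 members, 2 were called higher and 7 lower in tumors against Vector (median -0.23), with a median of 1.52 in MUC1-CD culture against Vector. The summed signal of the list was 23060 and 25249 on the Vector arrays, 69001 and 70232 in MUC1-CD culture and 20031 and 21309 in tumors. Dhcr7, the last enzyme of cholesterol synthesis, gave 728 and 646 in Vector culture, 2274 and 2102 in MUC1-CD culture and 335 and 379 in tumors, a change of -0.91 (SE 0.14, adjusted p = 0.00221), and Pmvk, phosphomevalonate kinase, gave 1928 and 1709.6 in Vector culture, 3919.8 and 4048 in MUC1-CD culture and 1028 and 1061 in tumors, a change of -0.79 (SE 0.11, adjusted p = 0.00159). For both genes tumors were below Vector, and MUC1-CD culture was above both. Cyp51, lanosterol demethylase, kept some of the rise, with 1604 and 1516 in Vector culture, 8379.8 and 9432 in MUC1-CD culture and 3133 and 2967 in tumors and a change of 0.96 (SE 0.11, adjusted p = 5.10e-04), and Lss, which cyclizes squalene epoxide to lanosterol, changed by -1.37 (SE 0.19, adjusted p = 0.00142). Of 7 regulators, Srebf2, the transcription factor of the pathway, and Stard4, a sterol carrier, changed by -1.57 and -1.34 (adjusted p = 0.00965 and 0.00263), with the Srebf2 call lost without tumor replicate 1. Npc2 and Insig2 were not called (-0.16 and -0.13, adjusted p = 0.205 and 0.415).

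Fatty acid synthesis genes had medians in the same order. Of 18 synthesis and desaturation genes that passed (19 measured), 3 were called higher and 8 lower in tumors (median -0.35). Fasn, fatty acid synthase, gave 5335 and 5025 in Vector culture, 4301 and 4398 in MUC1-CD culture and 1619 and 1441 in tumors, a change of -1.75 (SE 0.11, adjusted p = 5.62e-05), and Acsl1, an acyl-CoA synthetase, gave 716 and 683 in Vector culture, 668 and 649 in MUC1-CD culture and 118 and 146 in tumors, a change of -2.28 (SE 0.16, adjusted p = 9.48e-05). For both genes the culture groups were close and the tumors low. Elovl1, which elongates very long chains, rose by 1.27 (SE 0.10, adjusted p = 1.68e-04), and Scd2 changed by -1.27 with 1 of its 3 other probe sets called in the opposite direction. Carriers and lipid droplet genes gave 5 called higher and 1 lower of 11 that passed (13 measured; median 0.73, or 0.48 over those that passed and -0.05 there after division by array medians). Fabp3 and Fabp4, carriers of fatty acids, rose by 2.79 (SE 0.30, adjusted p = 4.51e-04) and 2.22 (SE 0.19, adjusted p = 2.06e-04) and were at the tumor end. Plin2, a coat protein of lipid droplets, rose by 0.84 on the deposited scale, a call lost after division by array medians, and Plin3 changed by -0.89.

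Among mitotic genes, the median difference from Vector was larger in MUC1-CD culture, at 1.23, than in tumors. In tumors 17 of 32 were called higher and 3 lower, with a median of 0.58, which was -0.01 after division by array medians. Mad2l1, of the spindle checkpoint, gave 244 and 283 in Vector culture, 1259 and 1278 in MUC1-CD culture and 1194 and 1096 in tumors, a change of 2.06 (SE 0.14, adjusted p = 8.87e-05). Ccnb2, a mitotic cyclin, gave 1277 and 1396 in Vector culture, 4049.9 and 4094 in MUC1-CD culture and 2848 and 2729 in tumors, a change of 1.05 (SE 0.10, adjusted p = 3.39e-04). Prc1, of the spindle midzone, and Ube2c, which helps to destroy mitotic cyclins, rose by 1.05 and 1.15. Replication genes gave 2 called higher and 5 lower of 29 (median 0.07, which turned to -0.52 after division by array medians and -0.03 without Vector replicate 2). In each direction this is a smaller share than over all tested genes (24.8% called higher, 26.6% lower). Mcm7, a subunit of the replicative helicase, gave 4178 and 4309 in Vector culture, 1999 and 2016 in MUC1-CD culture and 1794 and 1639.9 in tumors, a change of -1.30 (SE 0.10, adjusted p = 1.54e-04), and Orc1 changed by -0.95. Mcm4 and E2f1 rose by 0.64 and 0.81, and each call was lost after division by array medians and without 1 tumor array. Of 20 D cyclins, CDK inhibitors and p53 targets that passed (26 measured), 5 were called higher and 6 lower (median 0.06, but -0.11 over those that passed and 0.06 there without Vector replicate 1). Both counts are close to the shares over all tested genes, 24.8% called higher and 26.6% lower. Cdkn1a, the p21 inhibitor of cyclin-dependent kinases, gave 7281 and 6939 in Vector culture, 2543 and 2032 in MUC1-CD culture and 1508 and 1583 in tumors, a change of -2.19 (SE 0.13, adjusted p = 5.62e-05). Mdm2, which degrades p53, gave 5806 and 6659 in Vector culture, 2360 and 2242 in MUC1-CD culture and 1866 and 1789 in tumors, a change of -1.76 (SE 0.11, adjusted p = 6.70e-05), and Plk2 changed by -1.74. Fas, a death receptor, rose by 2.92 (SE 0.18, adjusted p = 6.52e-05), so these p53 targets differed in direction.

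Of 29 MYC and ribosome biogenesis genes that passed (30 measured), 3 were called higher and 15 lower (median -0.49). Myc gave 3824 and 3012 in Vector culture, 228 and 227 in MUC1-CD culture and 397 and 417 in tumors, a change of -3.01 (SE 0.16, adjusted p = 3.68e-05) at a position of 126%, so the tumors stood above MUC1-CD culture and far below Vector. Gnl3, Mybbp1a and Nop56, nucleolar proteins, changed by -1.58, -1.74 and -0.90 (adjusted p = 5.39e-05 to 3.88e-04). Of 23 serine synthesis and ATF4 genes that passed (24 measured), 1 was called higher and 15 lower (median -1.01). Psat1, the second enzyme of serine synthesis, gave 10606 and 10758 in Vector culture, 4142 and 4013 in MUC1-CD culture and 1379.8 and 1465 in tumors, a change of -2.90 (SE 0.09, adjusted p = 7.87e-06), midway in culture like Phgdh. Atf4, the transcription factor of the amino acid response, gave 13113 and 14973 in Vector culture, 4082 and 3938 in MUC1-CD culture and 6474 and 6668 in tumors, a change of -1.09 (SE 0.09, adjusted p = 1.95e-04) at a position of 165%. Vldlr, a lipoprotein receptor, gave 2286 and 2127 in Vector culture, 1743 and 1631 in MUC1-CD culture and 345 and 414 in tumors, a change of -2.50 (SE 0.14, adjusted p = 4.49e-05). Respiratory chain and TCA cycle genes gave 3 called higher and 12 lower of 30 (median -0.27), with 8 lower after quantile normalization. Ndufa4 and Cox6c, of cytochrome oxidase, changed by -0.93 and -0.56, and Suclg1 and Idh3a, of the TCA cycle, by -0.55 and -0.78.

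Glucose and hypoxia genes had no common direction, and neither had the tested genes as a whole (24.8% called higher, 26.6% lower). Glucose uptake and glycolysis gave 5 called higher and 5 lower of 19 that passed (21 measured; median -0.12, or -0.15 over those that passed and 0.22 there without Vector replicate 1). The glucose transporter Slc2a3 gave 442 and 408 in Vector culture, 3076 and 2578 in MUC1-CD culture and 2219.5 and 2209.8 in tumors, a change of 2.34 (SE 0.13, adjusted p = 4.79e-05), and Slc2a1 gave 764 and 620.2 in Vector culture, 1524 and 1375 in MUC1-CD culture and 2114 and 2214 in tumors, a change of 1.63 (SE 0.14, adjusted p = 2.22e-04). The lactate transporter Slc16a1 changed by -1.26 (SE 0.10, adjusted p = 1.45e-04), and Pfkp rose by 0.87, a call lost after division by array medians. Hypoxia targets gave 9 called higher and 6 lower of 21 that passed (23 measured; median 0.01, or 0.12 over those that passed and -0.47 there after division by array medians). Car9, the carbonic anhydrase often used as a hypoxia marker, gave 6048 and 7494 in Vector culture, 4091 and 3921 in MUC1-CD culture and 1088 and 959 in tumors, a change of -2.70 (SE 0.14, adjusted p = 3.26e-05), and Ndrg1 gave 10878 and 11892 in Vector culture, 3389 and 3316 in MUC1-CD culture and 3295 and 3588 in tumors, a change of -1.72 (SE 0.10, adjusted p = 4.43e-05). Igfbp3, which binds IGFs, went the other way, with 12.5 and 15.3 in Vector culture, 2.8 and 14.6 in MUC1-CD culture and 609 and 620.3 in tumors and a change of 4.40 (SE 0.31, adjusted p = 9.78e-05), and Ero1a rose by 1.10. Detoxification genes under NRF2 gave 3 called higher and 8 lower of 21 that passed (23 measured; median -0.15). Mt2A, a metallothionein, gave 7708 and 7920.1 in Vector culture, 835 and 900.2 in MUC1-CD culture and 1484 and 1876 in tumors, a change of -2.22 (SE 0.14, adjusted p = 6.49e-05), and Gstm1, a glutathione transferase, rose by 1.30 (SE 0.17, adjusted p = 0.00106). Endoplasmic reticulum chaperones gave 4 called higher and 4 lower of 20 that passed (21 measured; median 0.19, with -0.40 after division by array medians and -0.08 without Vector replicate 2 over those that passed). Sel1l, Dnajc3 and Edem1 rose by 1.27, 1.03 and 1.01, and Herpud1 changed by -1.09.

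Adhesion, contractile and growth factor genes were also mixed, as were all tested genes (24.8% called higher, 26.6% lower). Adhesion genes gave 9 called higher and 6 lower of 21 that passed (26 measured; median 0.21, or 0.37 over those that passed and -0.20 there after division by array medians). Cdh1, E-cadherin of epithelia, gave 11.3 and 13.3 in Vector culture, 1.1 and 5.2 in MUC1-CD culture and 537 and 425 in tumors, a change of 4.13 (SE 0.29, adjusted p = 9.74e-05), while Cdh13, a cadherin without a cytoplasmic domain, was high in culture as well, at 3 and 1.8, 482 and 503 and 350.5 and 450.4. Cd44, the hyaluronan receptor, and the integrin Itgb4 rose by 1.61 (SE 0.10, adjusted p = 6.49e-05) and 2.55 (SE 0.17, adjusted p = 8.42e-05). Contractile genes gave 7 called higher and 8 lower of 18 that passed (22 measured; median 0.11, or -0.16 over those that passed). Myh10, a nonmuscle myosin, gave 6725 and 7713 in Vector culture, 2159 and 2205 in MUC1-CD culture and 1249 and 926 in tumors, a change of -2.73 (SE 0.16, adjusted p = 5.34e-05), and Mylk, the kinase of myosin light chains, rose by 2.04 (SE 0.19, adjusted p = 2.39e-04). The calponins differed, as Cnn2 changed by -2.43 and Cnn3 by 0.65, the latter a call lost after division by array medians. In the IGF axis 4 were called higher and 4 lower of 12 that passed (23 measured; median 0.40, or 0.03 over those that passed, with -0.56 there after division by array medians and -0.02 without Vector replicate 2). Grb10, an imprinted inhibitor of insulin signalling, gave 6454 and 6470.5 in Vector culture, 4611 and 4242 in MUC1-CD culture and 2226 and 2210.1 in tumors, a change of -1.54 (SE 0.09, adjusted p = 5.87e-05), and Igfbp5 and Igfbp6 changed by -1.73 and -1.49.

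**Figure D5:**
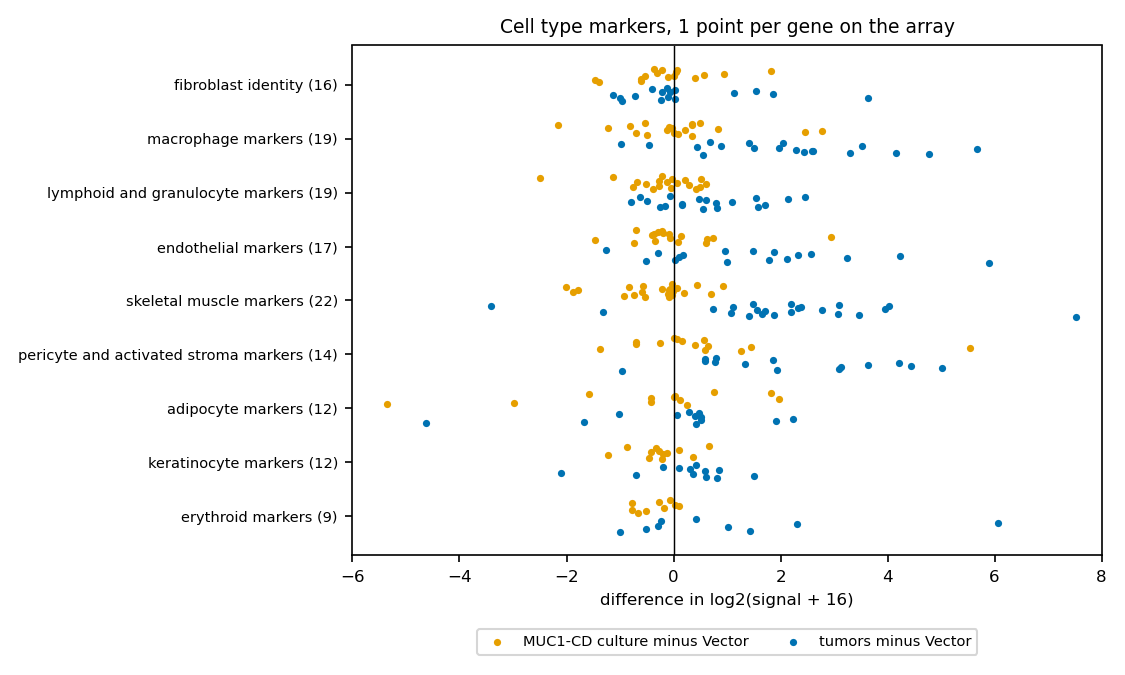
Differences in log2(signal + 16) from Vector culture for each measured marker of 9 cell types, in MUC1-CD culture (orange) and tumors (blue), 1 point per gene, including genes below the signal filter. Tumor points of the macrophage, skeletal muscle and pericyte lists lie mostly to the right of 0, while fibroblast identity genes lie on both sides.

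Most markers of macrophages, skeletal muscle and pericytes were higher in tumors than in Vector culture. Counts here are over all measured members, with or without passing the filter, of genes whose tumor arrays both lay above both Vector arrays; over all 14217 genes that share was 36.7%, and 30.5% lay below. Of 19 macrophage markers, 17 lay above and 2 below, with a median change of 2.05. Their summed signal was 1445 and 1660 in Vector culture, 3631 and 3806 in MUC1-CD culture and 8928 and 8974 in tumors. Coro1a, an actin-binding protein of leukocytes, gave 2.9 and 5.3 in Vector culture, 15 and 1.6 in MUC1-CD culture and 912 and 1105 in tumors, and Aif1, a calcium-binding protein of macrophages, gave 13.5 and 2.4 in Vector culture, 0.8 and 0.4 in MUC1-CD culture and 639 and 604 in tumors. Both were at 15 or below in all 4 cultures and high in both tumors, with changes of 5.67 (SE 0.34, adjusted p = 5.68e-05) and 4.77 (SE 0.33, adjusted p = 8.69e-05). Cd14, a receptor for lipopolysaccharide, was already high in cultured MUC1-CD cells, at 594 and 464, 2828 and 3052 and 3248 and 3289. Laptm5 and Lyz2 were the 2 lower members (-0.47 and -0.98), named after their values were seen. Of 19 lymphoid and granulocyte markers, 11 lay above, 2 below and 6 overlapped (median 0.54). S100a9, a calcium-binding protein of neutrophils, gave 39.1 and 15.5 in Vector culture, 2.5 and 3.6 in MUC1-CD culture and 214 and 208 in tumors, a change of 2.45 (SE 0.36, adjusted p = 0.00164), and the Lck call (change 0.61) was lost under 12 of the 15 other settings that tested it.

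Endothelial markers divided: 11 of 17 lay above, 3 below and 3 overlapped, with a median of 1.49 and summed signals of 680 to 729 in Vector culture, 842 to 849 in MUC1-CD culture and 3894 to 4023 in tumors. Aqp1, a water channel, gave 10.1 and 13.8 in Vector culture, 33.3 and 20.7 in MUC1-CD culture and 1763 and 1550.4 in tumors, and Flt1, a VEGF receptor, gave 35.1 and 23.3 in Vector culture, 58.5 and 58.8 in MUC1-CD culture and 382 and 434 in tumors, with changes of 5.90 (SE 0.24, adjusted p = 1.64e-05) and 3.24 (SE 0.24, adjusted p = 1.10e-04). Mmrn2 and Esam, of endothelial matrix and junctions, rose by 4.23 and 2.12. The defining markers Pecam1 and Kdr, looked up after the list was seen, were at 17.8 and 27.5 and at 6.9 and 11.3 in tumors, no higher than the range of all 4 culture arrays for either gene. Of 22 skeletal muscle markers, 20 lay above and 2 below (median 2.03). The 2 below, Tnnc1 and Myh1, carried most of the summed signal in the cultures. The sum was 18517 and 19193 in Vector culture, 5404 and 5492 in MUC1-CD culture and 15430 and 16565 in tumors. Atp2a1, the calcium pump of fast muscle, gave 28.8 and 35.3 in Vector culture, 12.8 and 12.6 in MUC1-CD culture and 481 and 546 in tumors, whereas Tnnc1, the troponin C of slow muscle and heart, gave 8681 and 7337 in Vector culture, 1973 and 1984 in MUC1-CD culture and 731 and 747 in tumors and Myh1, a fast myosin, gave 9779 and 10297 in Vector culture, 2806 and 2626 in MUC1-CD culture and 4122 and 3929 in tumors. Of 14 pericyte and stromal markers, 13 lay above and 1 below (median 1.89). Dcn and Lum, small leucine-rich proteoglycans, gave 16.1 and 23.6 in Vector culture, 39.2 and 40.5 in MUC1-CD culture and 799.7 and 709 in tumors for Dcn and 10.9 and 12.2 in Vector culture, 14.7 and 1.6 in MUC1-CD culture and 467 and 519.6 in tumors for Lum, with only the tumors high. Cspg4, the pericyte proteoglycan NG2, was high in culture too, at 3.9 and 3.3, 931 and 855 and 583 and 662.

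Hemoglobin transcripts were higher in tumors than in all 4 cultures. Hbb gave 17.3 and 57.3 in Vector culture, 12 and 13.9 in MUC1-CD culture and 3224 and 3309 in tumors, a change of 6.05 (SE 0.36, adjusted p = 5.51e-05), and Hba-a3 rose by 2.31 (SE 0.25, adjusted p = 5.03e-04), while of 9 erythroid markers 4 lay above, 2 below and 3 overlapped (median 0.43). The Epor call (change 1.02) was likewise lost under 12 of 15, and Slc4a1 was not called (0.43, adjusted p = 0.379). Adipocyte and keratinocyte markers each gave 5 above, 2 below and 5 overlapping of 12. Over all 14217 genes 36.7% lay above and 30.5% below. The shares above in these lists and the erythroid list are therefore not far from that of all genes. Car3, a carbonic anhydrase of muscle and fat, gave 12606 and 17342 in Vector culture, 351 and 340.3 in MUC1-CD culture and 639.6 and 527 in tumors, a change of -4.63 (SE 0.18, adjusted p = 1.46e-05), and Cfd, the complement protease adipsin, changed by -1.68 (SE 0.16, adjusted p = 3.00e-04). Krt15 and Krt10, keratins of skin, changed by -2.10 and -0.70, the latter a call lost under 9 of 15 other settings. Pparg, Krt17 and Sfn were not called (0.48, 0.59 and -0.20). Of 16 fibroblast identity genes, 4 lay above, 7 below and 5 overlapped (median -0.12). Their summed signal was 126404 and 129935 in Vector culture, 91432 and 92810 in MUC1-CD culture and 107620 and 111597 in tumors, a sum carried by bright probe sets such as those of the collagens. Pdgfra, a PDGF receptor of fibroblasts, gave 9687 and 10514 in Vector culture, 6989 and 6917 in MUC1-CD culture and 4546 and 4654 in tumors, a change of -1.13 (SE 0.08, adjusted p = 1.12e-04). Fap, a protease of activated fibroblasts, gave 30.4 and 28.7 in Vector culture, 32.5 and 59.3 in MUC1-CD culture and 588 and 513 in tumors, a change of 3.63 (SE 0.27, adjusted p = 1.22e-04). Ddr2 changed by -1.01, with 1 of its 2 other probe sets called in the opposite direction.

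Falls were unevenly spread over the chromosomes of GRCr8. Chromosome 7 had 656 tested genes with a median change of -0.54 and 50.9% called lower, against 26.6% of all genes, and 105 of them called higher. Of its 211 called falls of at least 1, 139 had MUC1-CD culture at the tumor end. Of the genes named above, Tmcc3, Myc, Mdm2, Atf4, Cnn2, Cox6c, Ndrg1, Srebf2, Krt7, Igfbp6 and Cfd, which fell, lie on this chromosome, as do Dcn, Lum, Dusp6 and Enpp2, which rose. Chromosome 16 had 292 tested genes with a median of -0.37 and 44.9% called lower, and 47 of its 69 falls of at least 1 had culture at the tumor end. Chromosomes 2 and 6 had 42.0% and 38.8% called lower. Chromosome 20, which holds the MHC genes, had the highest median, 0.28, with 34.7% called higher. Neighbouring genes are not independent, and the copy number of these lines was not measured here.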

How the data were processed

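The authors deposited MAS5 signal values, a linear intensity per probe set of the Affymetrix Rat Genome 230 2.0 array, per the submitters' processing notes (MAS5 version: not given in the sources used here). Each array was assigned to its group by its title. Of the 31042 probe sets other than controls, the platform annotation named 1 gene for 20826, several for 436 and none for 9780, and 20758 of the probe sets naming 1 gene matched GRCr8 in RefSeq. Signals were transformed as log2(signal + 16). A filter at the 40th percentile of the mean signal (61.6) left 18625 probe sets. A single limma fit (limma 3.58.1, R 4.3.3) used the 6 arrays, with group as the only term and eBayes with a trend; residual degrees of freedom were 3 and prior ones 3.70 (median). The 2-sided p values were adjusted by Benjamini-Hochberg over these probe sets, and calls were made under 0.05. A gene took its kept probe set of highest mean signal. On simulated data with the spread of these arrays (200 of 18625 probe sets changed, 10 simulations), 25.1% of 2-fold and 66.9% of 4-fold changes were recovered and 4.76% of calls were false. In the data 51.5% of probe sets were called, far more than were changed in the simulation. The adjusted p depends on that share, so these recoveries do not carry over to the comparison itself.

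The rule for genes named in the text took Muc1, the top 15 rises and top 15 falls without overlap between tumor and Vector arrays, the 6 largest of each position class and direction, and up to 4 members of each of 38 lists with the smallest p; exceptions are stated. Symbols starting with LOC, RGD, AABR or MGC were passed over when the largest changes were ranked. Members, lists and rules were chosen with earlier results of these data known. Alternatives were pseudocounts of 1 and 64, no filter or a 60th percentile filter, division by array medians, quantile normalization, only the 4 tumor and Vector arrays, array weights by group, a replicate block, the probe set of smallest p, leaving out each array and, for positions, limits of 33% and 67% or no limit on the change.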

Additional observations from a re-analysis of the deposited data

How the results depend on the processing

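The same 200 tested genes were refitted under 16 other settings (fewer where a gene failed that setting's filter). Of the 194 called, 182 kept their call under each setting that tested them, and only Insig2, which was not called, changed direction, to 0.67 (adjusted p = 0.0121) when each gene took its probe set of smallest p. The 12 that lost a call under at least 1 setting were Tmem50b, Krt7, Srebf2, Plin2, RT1-Da, Cnn3, Mcm4, E2f1, Pfkp, Lck, Krt10 and Epor. Dividing arrays by their median gave 1195 genes higher and 5458 lower, with 147 rises and 207 falls at the Vector end and 308 and 1156 at the tumor end. Rises at the Vector end numbered 381 with no filter and 71 with a 60th percentile filter, and rises at the tumor end 952 with the probe set of smallest p. Without the limit of 1 on the change, the Vector end held 357 rises and 262 falls and the tumor end 891 and 1036. Leaving out 1 array at a time gave 1555 to 3370 genes higher and 1681 to 3440 lower, 199 to 222 rises and 65 to 84 falls at the Vector end, and 465 to 784 rises and 476 to 591 falls at the tumor end. The causes of these movements were not tested, except that a filter or limit changes how many genes are counted. Same-numbered arrays did not deviate together over the probe sets (correlations of -0.03 to -0.01), so no pairing was seen by this measure. It does not tell whether same-numbered arrays were handled together. With the replicate block 2415 genes were called higher and 2529 lower. Signals below the filter limit what can be said of low genes, where 1 array can set the direction.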

Other observations

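Probe sets without a single gene name carried changes as large as those of named genes. Of 4754 such probe sets that passed the filter, 1389 were called higher in tumors than in Vector culture and 1004 lower, which is 50.3% in all. The unnamed probe set with the largest rise gave 0.8 and 0.8 in Vector culture, 5297 and 5449 in MUC1-CD culture and 11560 and 12567 in tumors, a change of 9.49 (SE 0.12, adjusted p = 6.86e-07) that exceeds the 9.22 of Xist. Another rose by 8.13, and the 2 largest falls among them were -5.10 and -5.00. In all 4 the MUC1-CD culture arrays stood at the tumor end, at positions of 87.7%, 89.2%, 93.5% and 111%. Where a gene had several probe sets they did not always move together: of 2832 genes with more than 1 that passed the filter, 254 had probe sets called in opposite directions, 53 of them among the 2633 genes placed between the end points.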
